A study of Mus musculus with 79 samples.

Results

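Collagen chain genes encode the polypeptides that wind around each other as trimers to make collagen molecules. They were taken here as every row of the tables whose symbol is Col, a type number, the letter a and a chain number, which is 44 of 23983 gene symbols in each table. All 44 were matched in the RefSeq gene table. By the structure of the proteins they fall into 9 families: 11 fibrillar, 6 basement membrane type IV, 9 fibril-associated, 6 type VI, 3 short-chain network, 1 anchoring fibril, 4 transmembrane, 2 multiplexin and 2 other chains.

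The study profiled neuro-mesodermal progenitors, cells at the tail end of the mouse embryo that can give spinal cord or paraxial mesoderm, and asked how the T-box factors T (Brachyury) and Tbx6 and the neural factor Sox2 bear on that choice. Of its 79 samples, the 9 bulk RNA libraries and 53 single cells hold gene expression and were analysed here, and every bulk group has 1 library. All embryos were derived from embryonic stem cells by tetraploid complementation, pooled tissue was made into single cells with trypsin, and flow cytometry sorted them. The sources used here do not state what detected T, Sox2 or Tbx6 in the sort, or how many stem cell clones were used.

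The sort table holds T+, T+ Sox2+ and Sox2+ cells of wild-type (WT) C57BL/6N embryos at Theiler stage 12 (TS12), with the RNA of about 1000 cells a library. The knockout table holds T+ cells of WT C57BL/6N embryos and of T knockout (T KO, T2J/2J) C57BL/6J embryos, each at TS12 and at TS13, from about 20000 cells a library. The tables came from different library kits, TotalScript for the sort and ScriptSeq for the knockout table. It also holds a pair of Tbx6+ libraries of C57BL/6J embryos at TS14, titled WT and Tbx6 KO. Titles and source names of that pair contradict each other on genotype, so it is named by its titles. Genotype and strain label cannot be told apart in the T KO comparison. The single cells were T+ Sox2+ cells of WT C57BL/6N embryos at TS13, caught on a Fluidigm C1 chip. Of 55 sites at which the protocol reports a captured cell, 53 are in the table.

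Collagens form the scaffold between cells. Type IV chains build the sheet of the basement membrane together with laminins, nidogens and the heparan sulfate proteoglycans, among them the multiplexin type XVIII. Fibrillar chains of types I, II, III, V and XI build the cross-striated fibrils of mesenchyme and cartilage, and fibril-associated chains such as types IX and XII sit on those fibrils. In the gastrulating embryo, cells leave an epithelium that rests on a basement membrane, and those that become mesoderm later make fibrillar collagen.

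The type IV genes lie head to head in pairs, and their start regions are shown because the levels of the paired chains are compared below. The start sites listed for the windows of Col4a1 and Col4a2 lie 21 bases apart on opposite strands of chromosome 8. The gene bounds listed overlap further, with Col4a1 reaching to 11312889 and Col4a2 beginning at 11312805. RefSeq windows of 250 bases before to 50 after each start site (build GRCm38.p6) are printed 5′ to 3′ on the strand of the gene, chr8:11312777-11313076 on the minus strand for Col4a1 and chr8:11312555-11312854 on the plus strand for Col4a2. Capitals mark the 78 bases that both windows share, read on opposite strands.
Col4a1: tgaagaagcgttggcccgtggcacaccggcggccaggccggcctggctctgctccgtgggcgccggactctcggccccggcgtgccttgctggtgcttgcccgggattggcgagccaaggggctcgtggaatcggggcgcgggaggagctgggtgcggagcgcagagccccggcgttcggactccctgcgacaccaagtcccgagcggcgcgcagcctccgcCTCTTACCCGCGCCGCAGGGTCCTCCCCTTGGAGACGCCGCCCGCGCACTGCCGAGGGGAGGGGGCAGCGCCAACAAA
Col4a2: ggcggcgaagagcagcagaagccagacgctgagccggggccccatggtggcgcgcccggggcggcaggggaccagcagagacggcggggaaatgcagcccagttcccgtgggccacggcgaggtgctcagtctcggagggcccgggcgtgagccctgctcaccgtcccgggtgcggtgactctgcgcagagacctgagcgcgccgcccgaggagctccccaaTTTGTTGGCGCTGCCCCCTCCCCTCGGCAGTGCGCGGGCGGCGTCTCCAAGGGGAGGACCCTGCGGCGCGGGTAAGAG

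Col4a5 and Col4a6 form a like pair on chromosome X with 1343 bases between the start sites listed, and their windows share 0 bases. They lie at chrX:141475169-141475468 on the plus strand for Col4a5 and chrX:141474027-141474326 on the minus strand for Col4a6. Capitals mark the single match to the GC box (GGGCGG, either strand) in each.
Col4a5: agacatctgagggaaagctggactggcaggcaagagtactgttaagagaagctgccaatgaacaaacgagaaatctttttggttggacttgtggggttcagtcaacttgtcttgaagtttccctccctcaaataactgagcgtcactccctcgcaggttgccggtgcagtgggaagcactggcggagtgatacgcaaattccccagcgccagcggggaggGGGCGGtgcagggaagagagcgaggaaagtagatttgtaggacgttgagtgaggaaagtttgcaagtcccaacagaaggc
Col4a6: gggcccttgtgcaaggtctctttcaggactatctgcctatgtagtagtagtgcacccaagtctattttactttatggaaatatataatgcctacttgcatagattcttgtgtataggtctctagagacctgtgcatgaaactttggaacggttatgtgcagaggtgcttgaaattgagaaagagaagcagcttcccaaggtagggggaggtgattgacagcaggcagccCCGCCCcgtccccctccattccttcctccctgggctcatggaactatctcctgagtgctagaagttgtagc

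RefSeq windows were found for 35 of the chains, 38 windows in all. The GC box was in 23 of these 38 (60.5%) and in 35.7% of all 32851 windows of that length. CCAAT, on either strand, was in 34.2% of the chain windows against 37.4% of all, and TATAAA in 13.2% against 13.6%. The T-box motif TCACACC was in 1 chain window (2.63%, against 3.98% of all) and the Sox motif CATTGT in 1 (2.63%, against 12.6%). None of the windows of Col4a1, Col4a2, Col4a5, Col4a6 or Col18a1 held either of the last motifs. These are letter matches in short windows, not binding sites.

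Values are FPKM, fragments scaled to transcript length and to library size, so levels of different chains can be set side by side within a table. The estimated depth was 20.8 to 43.5 M fragments a library, so that 5 FPKM over 1 kb rests on 104 to 218 fragments, with a counting error of 6.78% to 9.81%. Levels of the sorted genes were read first. WT T+ cells of TS12 and TS13 had T at 69.8 and 76.4 FPKM, T KO cells at 4.61 and 3.32 FPKM. Tbx6 was lower in the library with KO in its title (10.2 FPKM) than in its counterpart (31.5 FPKM). In the sort, Sox2 was at 2.82, 16.4 and 50.5 FPKM in T+, T+ Sox2+ and Sox2+ cells, but T mRNA was at 142, 341 and 192 FPKM, so the Sox2+ fraction was not poor in T mRNA. One library stood apart: T+ WT at TS12 had 1059 of 1495 olfactory, vomeronasal and taste receptor genes above 0 against 26 to 38 in the others, and it is the library with all 44 chains above 0 against 33 to 40. No difference is drawn here from its values under about 1 FPKM.

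A few chains of the basement membrane made up a large part of the collagen RNA in most of these libraries. Of the 44 chains, 15 reached 5 FPKM in at least 1 bulk library, 7 peaked between 1 and 5 FPKM, and 22 stayed under 1 FPKM throughout. The summed level of all chains was 91.7 to 126 FPKM, and Col18a1, Col4a1 and Col4a2 made up 43.8% to 55.1% of it in 8 libraries and 26.8% in the Tbx6+ library titled Tbx6 KO. Only Col18a1 and Col4a1 were at 5 FPKM or more in all 9 libraries, and 11 chains were at 1 FPKM or more in all 9. At the boundary of 5 FPKM, Col26a1 peaked at 5.01 and Col1a1 at 5.36 just inside, and Col23a1 at 3.73 and Col27a1 at 2.78 just outside. T+ WT cells of TS12 are in both tables, and there Col4a6 was at 0.688 and 4.41 FPKM and Col5a1 at 8.36 and 2.92 FPKM, so levels from different tables are set side by side only. In bulk samples, fewer cells of a type and less RNA per cell cannot be told apart, and this holds for every level given here.

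**Figure D1:**
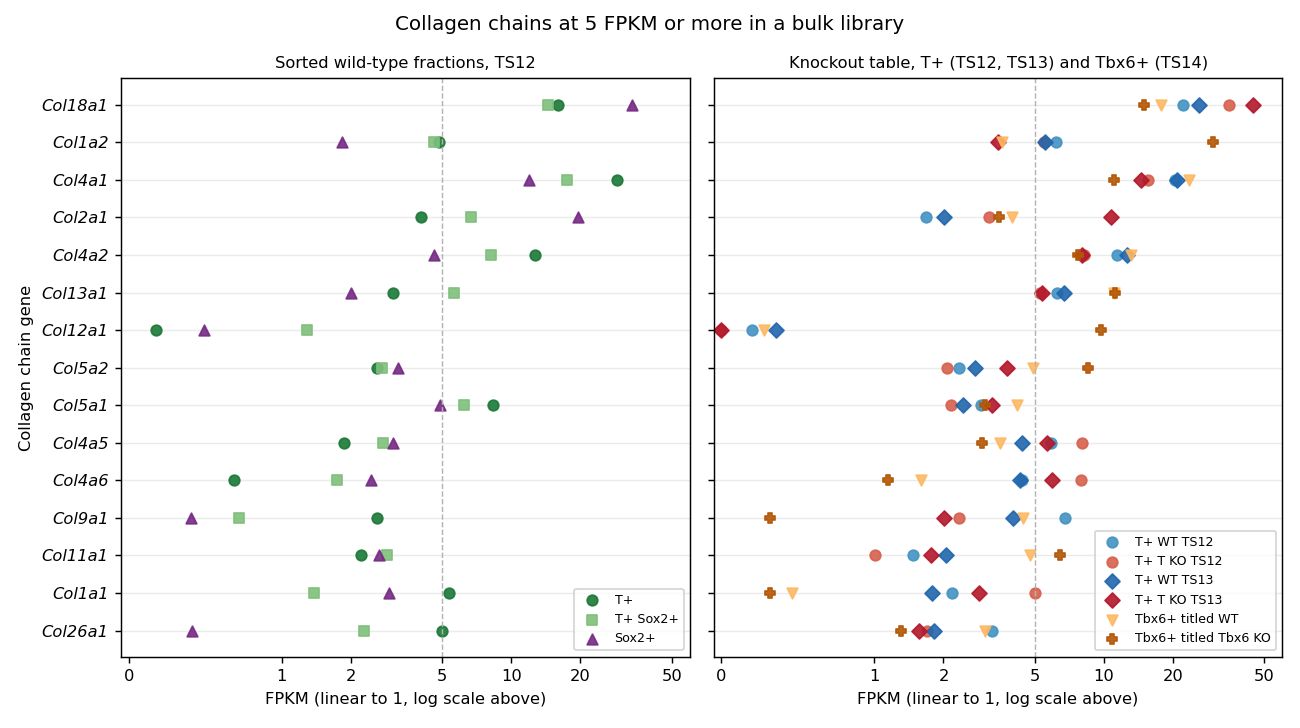
FPKM of the 15 collagen chains that reached 5 FPKM (dashed line) in at least 1 bulk library, 1 point per library, sort table on the left and knockout table on the right, on an axis that is linear to 1 and logarithmic above. Col18a1 and Col4a1 lie right of the line in all 9 libraries, and Col1a2 at 29.9 FPKM and Col12a1 at 9.69 FPKM in the Tbx6 KO-titled library lie far from the other points of their rows.

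Type IV chains came first by role. Col4a1 and Col4a2 form the type IV trimer found in nearly all basement membranes. Col4a1 was at 28.9, 17.4 and 11.98 FPKM in T+, T+ Sox2+ and Sox2+ cells. It was at 20.3 and 20.8 FPKM in WT T+ cells of TS12 and TS13, 15.6 and 14.5 FPKM in T KO cells, and 23.4 and 11.1 FPKM in the Tbx6+ pair, the library titled WT first. The order in the sort was T+ over T+ Sox2+ over Sox2+, and both WT libraries lay above both T KO libraries.

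Col4a2 had the same order in the sort, at 12.7, 8.17 and 4.58 FPKM. In the knockout table it was at 11.4 and 12.6 FPKM in WT, 8.15 and 8.00 FPKM in T KO, and 13.1 and 7.72 FPKM in the Tbx6+ pair. The ratio of Col4a1 to Col4a2 was 1.44 to 2.61 over the 9 libraries, while Col4a1 itself varied from 11.1 to 28.9 FPKM. The genes overlap at their starts, and the sources used here do not state whether reads were assigned by strand.

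The second pair, Col4a5 and Col4a6, makes the type IV network of a more restricted set of basement membranes, and it ran the other way in the sort. Col4a5 was at 1.87, 2.77 and 3.06 FPKM and Col4a6 at 0.688, 1.74 and 2.45 FPKM in T+, T+ Sox2+ and Sox2+ cells. Col4a5 was at 5.87 and 4.401 FPKM in WT T+ cells of TS12 and TS13, 8.03 and 5.68 FPKM in T KO cells, and 3.53 and 2.95 FPKM in the Tbx6+ pair. For Col4a6 these were 4.41 and 4.33, 7.94 and 5.95, and 1.60 and 1.14 FPKM. Within each stage the T KO library was the higher for both genes, but for Col4a5 the WT library of TS12 (5.87) lay above the T KO library of TS13 (5.68), so its groups overlap. Col4a3 and Col4a4, the chains of the mature kidney filter, stayed at 0.204 FPKM or below.

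**Figure D2:**
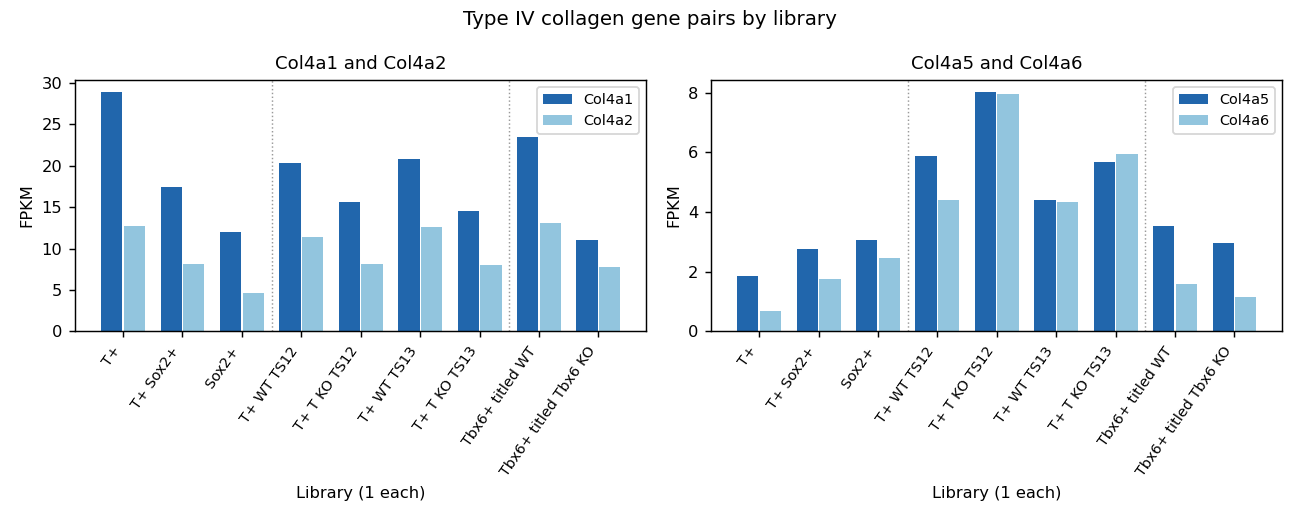
FPKM of Col4a1 and Col4a2 (left) and of Col4a5 and Col4a6 (right) in each bulk library, 1 bar per gene and library, with dotted lines that set off the sort table and the Tbx6+ pair. Col4a1 lies above Col4a2 in all 9 libraries, and Col4a6 is lowest in T+ cells of the sort at 0.688 FPKM and highest in T KO cells at TS12 at 7.94 FPKM.

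Col18a1 (chromosome 10, 77052178 to 77166530, build GRCm38.p6) encodes the multiplexin type XVIII chain, a proteoglycan of basement membranes whose cleaved end is endostatin. It was at 16.03, 14.5 and 33.7 FPKM in T+, T+ Sox2+ and Sox2+ cells. It was at 22.0 and 26.1 FPKM in WT T+ cells of TS12 and TS13, 35.1 and 44.6 FPKM in T KO cells, and 17.8 and 14.9 FPKM in the Tbx6+ pair. Sox2+ cells were the high fraction of the sort, and the lower T KO library lay above the higher WT library. The ratio of Col18a1 to Col4a1 was therefore lowest in T+ cells of the sort (0.554) and highest in T KO cells at TS13 (3.07). Col15a1, the other multiplexin, peaked at 0.560 FPKM in T+ cells of the sort.

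Among the fibrillar chains, Col2a1 encodes type II collagen, known from cartilage and notochord and made transiently by the early neural epithelium. It was at 4.02, 6.70 and 19.4 FPKM in T+, T+ Sox2+ and Sox2+ cells. In the knockout table it was at 1.68 and 2.02 FPKM in WT T+ cells of TS12 and TS13, 3.15 and 10.7 FPKM in T KO cells, and 3.98 and 3.51 FPKM in the Tbx6+ pair. The high values were thus in the Sox2+ fraction and in T KO cells at TS13. Col11a1, a type XI chain that joins type II fibrils, did not follow it: it was at 2.21, 2.88 and 2.65 FPKM in the sort, 1.48 and 2.04 in WT, 1.00 and 1.76 in T KO, and 4.75 and 6.43 in the Tbx6+ pair.

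Type I collagen, the main fibril of mesenchyme, is built from Col1a1 and Col1a2, and the RNA levels of its chains did not run in parallel. Col1a2 was at 4.82, 4.61 and 1.84 FPKM in the sort, 6.19 and 5.54 in WT and 5.47 and 3.47 in T KO T+ cells, and 3.60 and 29.9 in the Tbx6+ pair. Col1a1 was at 5.36, 1.38 and 2.93 FPKM in the sort, 2.18 and 1.78 in WT, 5.00 and 2.85 in T KO, and 0.460 and 0.318 in the Tbx6+ pair. The ratio of Col1a2 to Col1a1 ran from 0.626 in Sox2+ cells to 93.99 in the library titled Tbx6 KO. Col3a1, which is often made together with type I collagen, was at 2.40 FPKM in that library and 0.937 to 2.14 FPKM in the other 8.

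Type V chains start and thin collagen fibrils. Col5a1 was at 8.36, 6.21 and 4.87 FPKM in the sort, 2.92 and 2.42 in WT, 2.16 and 3.25 in T KO, and 4.19 and 3.04 in the Tbx6+ pair. Col5a2 was at 2.60, 2.73 and 3.22 FPKM in the sort, 2.33 and 2.73 in WT, 2.07 and 3.79 in T KO, and 4.90 and 8.52 in the Tbx6+ pair. WT and T KO libraries overlapped for both. The other fibrillar chains were lower: Col27a1 peaked at 2.78, Col24a1 at 1.80, Col11a2 at 0.674 and Col5a3 at 0.127 FPKM.

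Of the 9 fibril-associated chains, Col9a1 and Col12a1 reached 5 FPKM. Col9a1, a type IX chain found on type II fibrils, was at 2.59, 0.721 and 0.407 FPKM in T+, T+ Sox2+ and Sox2+ cells. It was at 6.77 and 4.02 FPKM in WT T+ cells of TS12 and TS13, 2.35 and 2.01 FPKM in T KO cells, and 4.42 and 0.319 FPKM in the Tbx6+ pair, so both WT libraries lay above both T KO libraries. Its partner chains Col9a2 and Col9a3 peaked at 0.829 and 0.873 FPKM, and Col9a3 overlaps Tcfl5. Col12a1, a chain of type XII collagen that coats type I fibrils, was at 0.174, 1.28 and 0.490 FPKM in the sort, 0.202 and 0.360 in WT, listed at 0 in both T KO libraries, and at 0.277 and 9.69 FPKM in the Tbx6+ pair.

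Among the transmembrane chains, Col13a1, which sits at cell adhesion sites, was at 3.04, 5.61 and 2.00 FPKM in T+, T+ Sox2+ and Sox2+ cells. It was at 6.22 and 6.68 FPKM in WT, 5.27 and 5.38 in T KO, and 11.0 and 11.2 in the Tbx6+ pair, so T+ Sox2+ cells were the high fraction of the sort and the Tbx6+ libraries the highest of the knockout table. Col26a1, a small secreted chain, was at 5.01, 2.29 and 0.414 FPKM in the sort, 3.27 and 1.82 in WT, 1.69 and 1.56 in T KO, and 3.02 and 1.31 in the Tbx6+ pair. Of the type VI chains, which build the beaded filaments around mesenchymal cells, none of the 6 reached 5 FPKM, and Col6a2 was the highest at 1.31 FPKM in T+ Sox2+ cells. The 3 short-chain network chains Col8a1, Col8a2 and Col10a1 peaked at 0.162, 0.0944 and 0.730 FPKM, and the anchoring fibril chain Col7a1 at 0.527 FPKM. Col10a1, the marker of hypertrophic cartilage, lies over Nt5dc1, which was at 2.60 to 5.38 FPKM.

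The first comparison asks how the sorted fractions differ. A chain was counted when the difference of log2(FPKM + 1) was at least 1 in size (2-fold on that scale, which understates the change of low genes) among chains that reached 5 FPKM in either library. With 1 library a group there is no replicate check and no p-value. T+ cells held more of the basement membrane trimer and less type II and type XVIII collagen RNA than Sox2+ cells. Of 7 chains above the minimum, 3 were higher in T+ cells (3.65% of 8387 genes were), namely Col26a1 by 2.09, Col4a2 by 1.29 and Col4a1 by 1.21 (log2). Lower were 2 of the 7 (3.24% of all genes), Col2a1 with a difference of -2.03 and Col18a1 with -1.03. The median difference was 0.69 over the 7 chains and 0.01 over all genes tested.

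T+ Sox2+ cells lay on the T+ side for Col18a1 and between the other fractions for Col4a1, Col4a2, Col2a1 and Col26a1. Against Sox2+ cells, 1 of 6 chains was higher (1.51% of 8274 genes), Col13a1 by 1.14, and 2 were lower (1.44%), Col2a1 by a difference of -1.41 and Col18a1 by -1.16. The median over these 6 chains was 0.40 and over all genes -0.02. Against T+ cells, 0 of 8 chains were higher (1.30% of 8294 genes) and 1 was lower (1.88%), Col1a1 with a difference of -1.42. There the median was -0.48 over the chains and -0.02 over all genes. The 3 fractions share libraries between comparisons, so these values are not independent of each other.

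Markers of other cell types differed along the sort. The summed level of 8 endothelium markers was 62.4 FPKM in T+ cells, with 8 of 8 at 1 FPKM or more, and 8.91 and 8.96 FPKM in T+ Sox2+ and Sox2+ cells, with 2 of 8. Red cell markers summed to 12040 FPKM in T+ cells against 112 and 231, lateral and intermediate mesoderm markers to 134 against 20.1 and 9.05, and none of these was at 0. Neural markers summed to 12.5 FPKM in T+, 40.4 in T+ Sox2+ and 154 in Sox2+ cells. Without Sox2, on which the cells were sorted, these sums were 9.65, 23.9 and 103 FPKM. Presomitic mesoderm markers summed to 550, 711 and 208 FPKM in the same order. The part of all these cell types in the collagen differences was not tested.

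Genes that act on collagen were read by their step in the pathway, beside 3.65% of all genes higher and 3.24% lower in T+ than Sox2+ cells. Of the 14 hydroxylases and glycosyltransferases that modify nascent chains, 11 were above the minimum in T+ against Sox2+ cells and 0 passed 2-fold, and 0 of 5 chaperone and export genes did. P4hb, the shared subunit of the prolyl hydroxylases, was at 188, 202 and 194 FPKM in T+, T+ Sox2+ and Sox2+ cells, and Serpinh1, the collagen chaperone HSP47, at 167, 170 and 145 FPKM. Outside the cell, 2 of 4 processing genes were higher in T+ cells, the procollagen C-proteinase enhancers Pcolce (7.63 against 1.48 FPKM) and Pcolce2 (13.2 against 3.58 FPKM). Of 3 receptors above the minimum, the collagen-binding kinase Ddr1 was lower (5.14 against 20.9 FPKM). Of 6 turnover genes the gelatinase Mmp2 was higher (56.8 against 17.9 FPKM) and the protease inhibitor Timp3 lower (2.09 against 8.17 FPKM).

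Of 9 basement membrane partners (6 laminins and nidogens, and perlecan Hspg2, agrin Agrn and Sparc), 3 had a level in T+ cells at least 2-fold above that in Sox2+ cells and 0 had one below. Lama1 was at 25.3, 25.1 and 7.89 FPKM in T+, T+ Sox2+ and Sox2+ cells, Lamb1 at 31.6, 27.6 and 14.0 FPKM and Nid1 at 11.3, 1.52 and 1.59 FPKM. Nid1 thus separated T+ from both other fractions, while Lama1 separated both T+ fractions from Sox2+ cells. The median over the 9 genes was 0.69.

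The second comparison asks what loss of T does to T+ cells at 2 stages. The test was limma on log2(FPKM + 1) of the 4 libraries with stage and genotype as terms and 1 residual degree of freedom, over 8189 genes with Benjamini-Hochberg adjustment at 0.05. Its p-values set the size of the effect against a variance drawn largely from all genes of like level. A gene itself adds only how alike its effect was at both stages. They do not measure the spread between embryos. Of 9 chains tested, 1 rose, Col18a1, and 0 fell by limma, while 6 had an unadjusted p under 0.05, as did 1029 of all 8189 genes (12.6%). Over all genes 54 rose (0.659%) and 70 fell (0.855%). The median over the 9 chains was -0.24 and over all genes -0.01.

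Col18a1 was higher in T KO by 0.70 (log2, SE 0.146, limma adjusted p = 0.0486 by Benjamini-Hochberg, n = 2 libraries a genotype), by 0.65 at TS12 and 0.75 at TS13. That call lies close to the threshold. The estimate was above 0 in each alternative, from 0.45 to 0.87, but the call was kept only with a pseudocount of 0.1 (limma adjusted p = 0.0358). With a minimum of 1 FPKM the limma adjusted p was 0.0533, and without the stage term it was 0.288. Without 1 of the 4 libraries the estimate was 0.53 to 0.87. Those fits also had no stage term and left 1 library in a genotype, so only the estimate is given.

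The other chains did not pass the test. Col2a1 had the largest estimate, 1.29 (SE 0.345, limma adjusted p = 0.116), made up of 0.63 at TS12 and 1.96 at TS13. Without T KO at TS12, a fit that also had no stage term, the estimate was 2.04. Without T KO at TS13 no library reached 5 FPKM, so Col2a1 was not tested there. Col9a1 had -0.98 (SE 0.286, limma adjusted p = 0.157). It reached 5 FPKM only in T+ WT at TS12 (6.77 FPKM), the library that stood apart. Without that library Col9a1 was not tested. Col4a2 had -0.52 (SE 0.166, limma adjusted p = 0.201) and Col4a1 -0.43 (SE 0.149, limma adjusted p = 0.24). By stage these 2 had -0.44 and -0.36 at TS12 and -0.59 and -0.49 at TS13. The remaining 4 had estimates of 0.55 for Col4a6, 0.35 for Col4a5, -0.35 for Col1a2 and -0.24 for Col13a1, with limma adjusted p of 0.317 to 0.676.

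By stage, 1 of 8 chains was at least 2-fold lower in T KO at TS12, Col9a1 with -1.22, and 0 were higher (1.00% and 0.991% of 7867 genes). Against the WT library of TS13 in place of that of TS12, Col9a1 was not counted. At TS13, 1 of 8 chains was higher, Col2a1 with 1.96, and 0 were lower (1.11% and 1.48% of 7955 genes). The median over the chains was -0.18 at TS12 and 0.02 at TS13, against 0.03 and -0.04 over all genes.

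From TS12 to TS13, WT T+ cells showed 0 of 7 chains past 2-fold in either direction (0.961% of 7801 genes were higher and 0.385% lower). In T KO cells 1 of 8 was higher at TS13, Col2a1 by 1.50, and 0 were lower (0.669% and 0.820% of 7922 genes). Medians were 0.03 over the chains and 0.05 over all genes in WT, and -0.06 and -0.02 in T KO. The T KO library of TS13 enters both the genotype and the stage difference of Col2a1, so both rest on the same library.

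The signs of the sort and knockout differences were set side by side. All 9 chains tested by limma had opposite signs in T+ minus Sox2+ (sort table) and T KO minus WT (knockout table), which share no library, and 4641 of 8189 genes (56.7%) did. After upper-quartile and median-ratio scaling it was again 9 of 9 chains, and 53.1% and 56.3% of all genes. Col2a1 had -2.03 and 1.29, Col18a1 -1.03 and 0.70, Col4a6 -1.03 and 0.55, and Col4a5 -0.50 and 0.35. On the other side Col9a1 had 1.35 and -0.98, Col4a2 1.29 and -0.52, Col4a1 1.21 and -0.43, Col1a2 1.04 and -0.35, and Col13a1 0.43 and -0.24. The chains are few and paired chains are neighbours in the genome, so they are not independent points. Of the 9, 5 (Col13a1, Col1a2, Col4a5, Col4a6 and Col9a1) were under 5 FPKM in both T+ and Sox2+ cells. The opposite signs do not extend to all chains and depend on the minimum of 5 FPKM, which Col1a1 missed at 4.996 FPKM. With a minimum of 1 FPKM limma tested 18 chains. Of those added there, Col11a1 and Col3a1 had the same sign in the sort and in T KO at both stages. Col24a1 and Col27a1 had opposite signs, and Col23a1 and Col5a2 changed sign between stages. Beside the 9, 3 chains were above the minimum in the sort but too low for limma at 5 FPKM. Of these, Col1a1 was higher in T+ cells (5.36 against 2.93 FPKM). It was also higher in T KO (4.996 against 2.18 FPKM at TS12, 2.85 against 1.78 at TS13). Col5a1, higher in T+ cells (8.36 against 4.87 FPKM), was lower in T KO at TS12 (-0.31) and higher at TS13 (0.31), and Col26a1 (5.01 against 0.414 FPKM) was lower in T KO at both (-0.67 and -0.14). By limma, 8 of the 9 T KO estimates did not pass their own test.

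**Figure D3:**
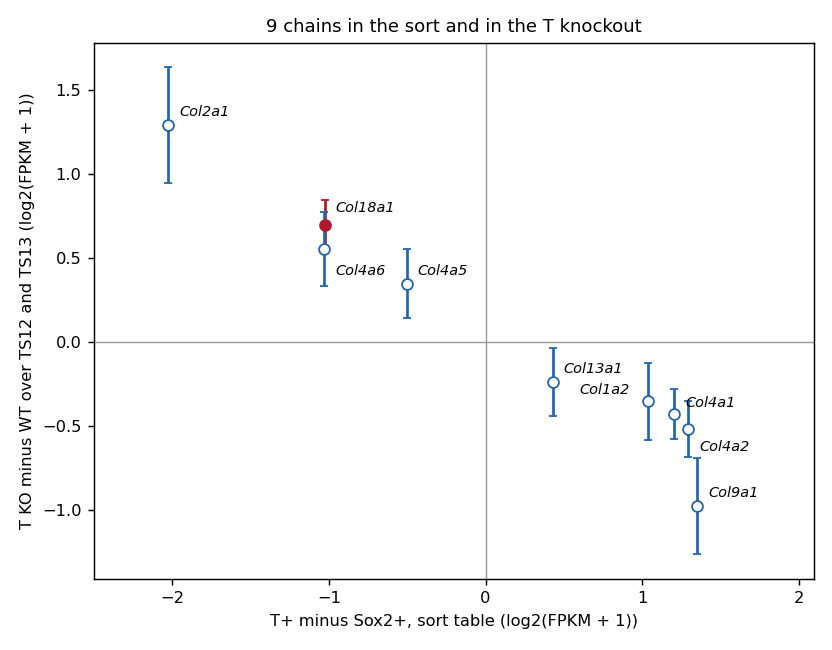
Difference of log2(FPKM + 1) between T+ and Sox2+ cells of the sort table (x axis, 1 library each, no error) against the limma estimate for T KO minus WT in T+ cells over TS12 and TS13 (y axis, bars are 1 SE, n = 2 libraries a genotype) for the 9 chains tested. The points run from Col2a1 at -2.03 and 1.29 to Col9a1 at 1.35 and -0.98, no point lies in the upper right or lower left field, and Col18a1 (filled, red) is the chain past the threshold.

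Markers differed between WT and T KO as well. Presomitic mesoderm markers summed to 208 FPKM at TS12 and 215 at TS13 in WT, and to 47.7 and 28.8 FPKM in T KO, where Mesp2 was at 0, and 4 of 6 tested fell by limma (Msgn1, Dll1, Dll3 and Rspo3). Neural markers summed to 24.0 and 29.7 FPKM in WT and 34.1 and 88.0 FPKM in T KO. Without Sox2 these sums were 13.8 and 17.7 FPKM in WT and 19.2 and 44.5 FPKM in T KO. Of 4 neural markers tested by limma 1 rose, Sox3. Sox1 and Irx3 had estimates above 0 (1.79 and 0.70) and Hes5 one below (-1.31), and none of these passed. Lateral and intermediate mesoderm markers summed to 104 and 96.8 FPKM in WT and 72.0 and 49.7 in T KO, and 2 of 6 fell (Foxf1 and Osr1). Of the somite and sclerotome markers 2 of 3 fell (Meox1 and Aldh1a2), and of the surface ectoderm markers 1 of 4 rose (Grhl3). Endothelium markers summed to 73.8 and 93.1 FPKM in WT and 57.6 and 62.7 in T KO, with 0 of 5 past the test. The part of these cells in the collagen values was not tested.

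Among the partner genes, Ddr1, the receptor that binds fibrillar and type IV collagen, rose with Col18a1. It was at 2.08 and 3.20 FPKM in WT and 6.14 and 8.01 FPKM in T KO (log2 difference 1.16, SE 0.241, limma adjusted p = 0.0486). Of 9 basement membrane partners, the laminin chain Lama5 rose (6.68 and 7.49 FPKM in WT, 13.6 and 12.9 in T KO, limma adjusted p = 0.0457) and Lama1 fell (8.23 and 8.80 FPKM in WT, 3.65 and 3.96 in T KO, limma adjusted p = 0.0494). WT and T KO libraries did not overlap for any of these genes, but their calls also lie close to the threshold. Over 11 alternatives Ddr1 and Lama5 kept theirs in 2 and Lama1 in 3. The alternatives that leave out a library also drop the stage term and leave 1 library in a genotype. Of the 10 hydroxylases and glycosyltransferases, 5 chaperones, 2 processing and 4 turnover genes tested by limma, 0 rose and 0 fell. At an unadjusted p under 0.05 these counts were 1, 0, 2 and 2, beside 12.6% of all genes.

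The last bulk comparison is between the Tbx6+ libraries. The library titled Tbx6 KO held far more Col12a1 and Col1a2 RNA and less Col4a1 RNA. Of 8 chains, 2 were at least 2-fold higher (2.47% of 7722 genes), Col12a1 by 3.07 (9.69 against 0.277 FPKM) and Col1a2 by 2.75 (29.9 against 3.60 FPKM). Lower was 1 (1.59% of all genes), Col4a1 with -1.02, which was -0.97 after either rescaling of the libraries. Col4a2 had -0.70 and Col18a1 -0.24, while Col13a1 was level at 0.02. The median was 0.19 over the chains and -0.04 over all genes.

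Below the minimum of 5 FPKM, Col9a1 was at 4.42 against 0.319 FPKM and Col17a1, an epithelial transmembrane chain of hemidesmosomes, at 1.81 against 0.140 FPKM. Col1a1 stayed low in both libraries, so the high Col1a2 was not matched by the other type I chain. Of the processing genes, Pcolce2 was lower (5.55 against 20.7 FPKM), of the turnover genes Mmp16 was higher (12.4 against 2.36 FPKM), and of the basement membrane partners Nid2 was lower (8.13 against 25.6 FPKM). No hydroxylase (of 9) or chaperone (of 5) passed 2-fold.

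Other markers differed in this pair too. Endothelium markers summed to 54.0 FPKM in the library titled WT and 18.1 in the one titled Tbx6 KO. In the same order, notochord and node markers summed to 58.8 and 20.7, surface ectoderm markers to 56.2 and 18.6, and lateral and intermediate mesoderm markers to 40.1 and 9.53. Most of the surface ectoderm sum was Krt8 (25.9 and 8.32 FPKM), which is also on the notochord list, and Krt18 (27.75 and 6.93 FPKM). Wnt6 of that list was higher in the library titled Tbx6 KO (2.47 against 0.904 FPKM). Higher in the library titled Tbx6 KO were neural markers, at 47.4 against 11.9 FPKM. Of these Sox2 alone was 42.3 against 4.70 and the 7 others together 5.10 against 7.24. Neural crest markers were at 27.7 against 11.5 FPKM, of which Pax3, also on the somite list, was 17.2 against 1.95. Ets1 was at 9.57 against 8.24 FPKM, and Snai2 was lower, at 0.549 against 1.15 FPKM. Red cell markers were at 258 against 0.905 FPKM. Presomitic mesoderm markers summed to 497 FPKM in the library titled WT and 342 in the other. Of 7, 4 were at least 2-fold lower (Dll1, Tbx6, Lfng and Msgn1), beside 1.59% of all genes. Tbx6 is the gene these cells were sorted on, and Rspo3 was higher (208 against 124 FPKM). Somite and sclerotome markers summed to 40.7 and 29.9 FPKM, with 3 of 4 lower and 1 higher (2.47% of all genes were higher). The part of all these cell types in the collagen values was not tested.

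**Figure D4:**
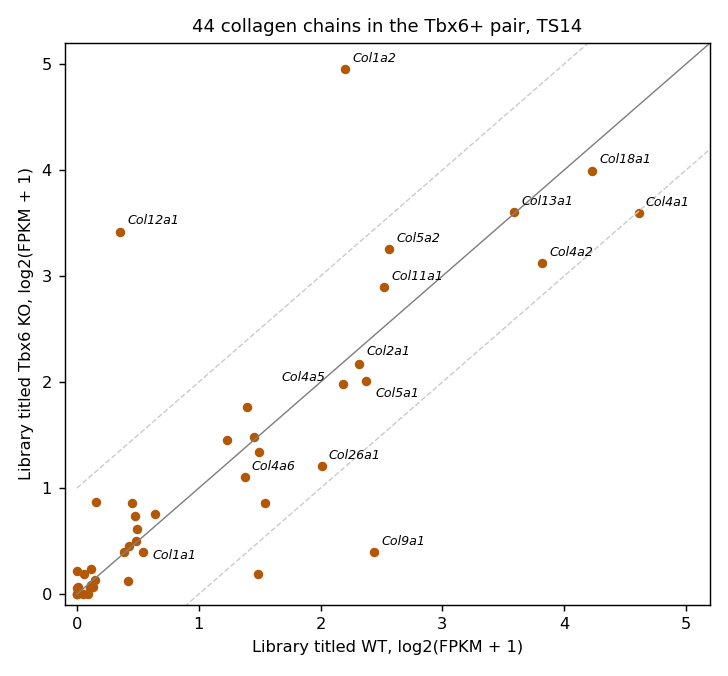
log2(FPKM + 1) of all 44 collagen chains in the Tbx6+ library titled WT (x axis) and titled Tbx6 KO (y axis), 1 point per chain and 1 library per axis, with the line of equality and dashed lines at 2-fold. Col12a1 and Col1a2 lie beyond the upper dashed line, 3.07 and 2.75 above equality, Col4a1 lies at the lower one with -1.02, and Col9a1, under the minimum of 5 FPKM, lies beyond it with -2.04.

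Single T+ Sox2+ cells showed which chains occur in the same cell. At 1 FPKM or more, a cell held 1 to 10 chains, with a median of 5, and the summed level was 3.77 to 139 FPKM with a median of 38.7. Genes detected per cell ran from 3912 to 8554, with a median of 5638, and the number of chains followed it with a Spearman rho of 0.454 over 53 cells of 1 pool. The depth of each cell is unknown. Cells of 1 pool are not replicates, so shares are given with exact (Clopper-Pearson) 95% intervals that cover counting of cells only.

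At 1 FPKM or more, Col18a1 was the most frequent chain, in 36 of 53 cells (67.9%, 53.7% to 80.1%), and Col4a1 the next, in 29 (54.7%, 40.5% to 68.4%). Their highest values were 90.7 and 84.4 FPKM and their medians over all cells 4.24 and 1.34 FPKM. Col13a1 was found in 22 cells (41.5%), Col27a1 in 20 (37.7%), Col4a6 in 19 (35.8%), Col4a2 in 17 (32.1%) and Col1a2 in 14 (26.4%). With any value above 0, Col18a1 and Col4a1 were both in 41 cells, Col27a1 in 28 and Col13a1 in 25. At 1 FPKM, 15 chains were found in 6 or more cells, 15 in 1 to 5 cells and 14 in no cell, for which 0 of 53 cells allows a share of up to 5.66% (3 cells of 53) or 6.72% (exact 95% upper bound). Both limit cells at 1 FPKM or more, not cells that express the gene. Col2a1 was in 6 cells (11.3%), with 15.2 FPKM as its highest value. Col12a1 and Col3a1 were listed at 0 in every cell, and Col1a1 did not reach 1 FPKM in any.

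**Figure D5:**
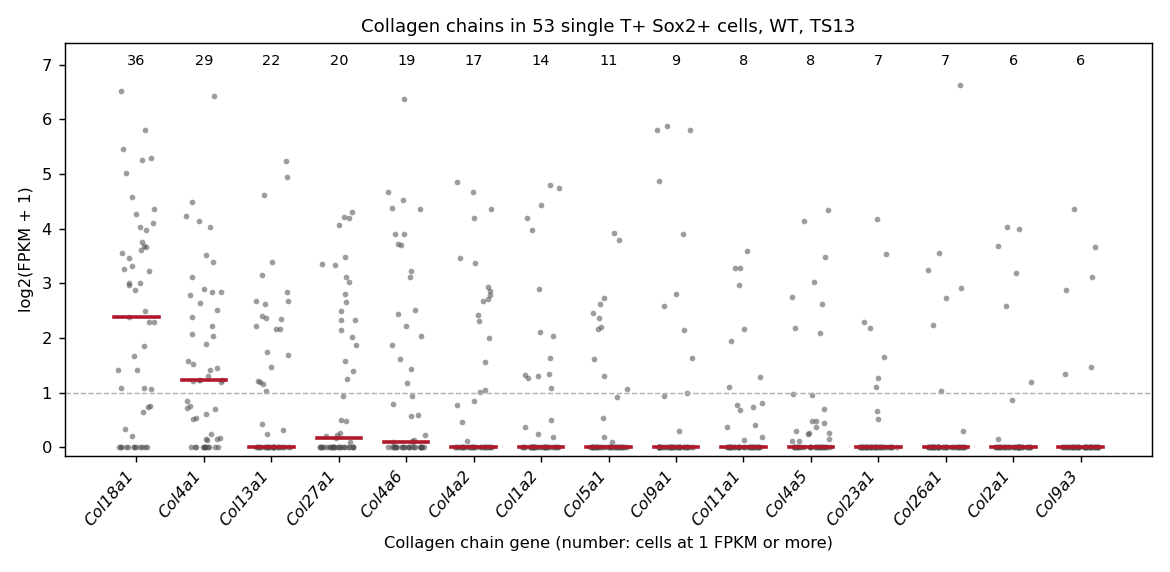
log2(FPKM + 1) of the 15 chains found in 6 or more of the 53 single T+ Sox2+ cells, 1 point per cell with sideways jitter, the red bar marking the median over all cells, the dashed line 1 FPKM and the number on top the cells at or above it. Col18a1 (36 cells) and Col4a1 (29 cells) have medians clearly above 0, and most chains from Col13a1 (22 cells) to the right have a median of 0.

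Chains that share a trimer were found together in about as many cells as their single frequencies give. Col4a1 and Col4a2 were both present in 8 cells, Col4a1 alone in 21, Col4a2 alone in 9 and neither in 15, and 9.30 cells would hold both if they were independent. The Spearman rho of their levels was -0.01 over the 53 cells. Col4a5 and Col4a6 were together in 3 cells (2.87 if independent), and Col4a6 alone in 16. The type V chains Col5a1 and Col5a2 were together in 0 cells (0.415 if independent), with 11 and 2 cells that held 1 of them alone. With Col1a1 at 1 FPKM in no cell, the type I pair could not be read. Col18a1 and Col4a1, chains of different types, were together in 21 cells (19.7 if independent). In bulk T+ Sox2+ cells of TS12 Col4a1 and Col4a2 were at 17.4 and 8.17 FPKM. For a cell with Col4a1 and without Col4a2, absence of the RNA and missed detection cannot be told apart here. No test was made of these counts.

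Endothelial cells make much Col4a1 and Col4a2, so their markers were read in the same cells. Of 8 endothelium markers, at least 1 reached 1 FPKM in 24 of 53 cells, among them Egfl7 in 14 and Kdr in 12. Of the 29 cells with Col4a1, 18 held such a marker and 11 held none, and of the 17 with Col4a2 these were 6 and 11. Of the 6 markers other than Kdr and Egfl7 (Cdh5, Pecam1, Tek, Tie1, Emcn and Esam), a subset of the list drawn after its values were seen, at least 1 reached 1 FPKM in 4 cells. Of the cells with Col4a1, 3 held 1 of these 6 and 26 held none, and of those with Col4a2 these were 1 and 16. Egfl7 and Kdr were the most frequent markers, so leaving them out makes this overlap small by choice, and nothing is drawn from it. The part of endothelial cells in the collagen values was not tested. Every cell held at least 1 presomitic mesoderm marker, up to 7 of 8, and all but 2 held a neural marker, a list that includes Sox2. T itself reached 1 FPKM in 53 cells and Sox2 in 46. Red cell markers were absent from 47 of 53 cells, with at most 1 in a cell.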

How the data were processed

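All deposited values are FPKM, computed by the authors for each gene symbol in each library or cell. The submitters' processing notes name Cufflinks 2.2.1, Cuffdiff, Cuffnorm, TopHat2 2.1.0, Bowtie 1.1.2, Picard 1.103, bedtools 2.23.0 and SAMtools, and the build mm10. The sources used here do not state their roles, the annotation or how libraries were scaled. The tables were read separately, and levels across them are only set side by side. FPKM are not counts, so log2(FPKM + 1) was compared. Depth was estimated from the steps of low values (118 to 1110 genes on steps a library, 6 to 18 with gene lengths shuffled).

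Samples were grouped by their labels. Counts and tests ran over 19774 symbols, after removal of mitochondrial and small RNA genes, gene models without a name, ribosomal protein pseudogenes and joined symbols, and of T, Sox2 and Tbx6. limma 3.58.1 (R 4.3.3) used an empirical Bayes trend, with genes of at least 5 FPKM in 1 library, and was tested on simulated data. Python 3.11.15, pandas 2.3.3, scipy 1.17.1 and matplotlib 3.10.9 did the rest. The members and lists were chosen with earlier results of these data known. Chains were named with all values if they reached 5 FPKM in a bulk library, and of the other lists the genes past a threshold and the highest gene. Alternatives were the pseudocount, the minimum, scaling, the stage term, a fold of 1.5 and leaving out each library. The limma fits that left out a library also had no stage term. Accessibility and immunoprecipitation samples were not analysed here.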

Additional observations from a re-analysis of the deposited data

How the results depend on the processing

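The rise of 1 chain in T KO by limma (Col18a1) went to 0 chains without a minimum, with a minimum of 1 FPKM and under upper-quartile scaling. It also did under median-ratio scaling (chosen after seeing the data), without the stage term and against a fold of 1.5. The limma adjusted p of Col18a1 was then 0.661, 0.0533, 0.791, 0.076, 0.288 and 1. Fits without 1 of the libraries did not keep the call either. They also had no stage term and left 1 library in a genotype, so the loss cannot be put down to the library. No chain past 2-fold or past the limma threshold changed sign. Of the named differences within 2-fold, 5 changed sign under upper-quartile scaling: Col4a5 in T KO against WT at TS12 (0.39 to -0.06), and Col18a1, Col4a1, Col4a2 and Col13a1 in TS13 against TS12 in WT (to -0.30, -0.50, -0.38 and -0.39). Col4a1 in the latter also did under median-ratio scaling (0.03 to -0.02).

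Without the minimum, T+ Sox2+ cells had 2 chains higher against Sox2+ cells (Col26a1 added) and 2 lower against T+ cells (Col9a1 added), T+ against Sox2+ cells had 6 higher, and 3 were lower in the Tbx6+ library titled Tbx6 KO (Col9a1 and Col17a1 added). With a pseudocount of 0.1, 2 chains were lower in T+ Sox2+ than in T+ cells (Col26a1 added, -1.10). Against the WT library of TS13, 0 chains were lower in T KO at TS12. Col4a1 fell just short in the Tbx6+ pair under both scalings, leaving 0 chains lower. At 10 FPKM, 3 chains in place of 15 were found in 6 or more cells.

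Upper-quartile scaling moved the median of all genes to -0.47 for T KO against WT at TS12 (10 genes higher and 357 lower, against 78 and 79 as deposited) and to -0.48 for TS13 against TS12 in WT (9 and 219, against 75 and 30), where 1 chain, Col9a1, was then lower (-1.09). In limma it gave 15 genes that rose and 87 that fell, against 54 and 70. The T+ WT library of TS12, with many low values, enters each of these. Other settings that moved limma counts by over 1.5 times were no minimum (0 and 0 of 19774, with 1294 at an unadjusted p under 0.05) and median-ratio scaling (28 and 42). The same held for no stage term (4 and 17), a fold of 1.5 (6 and 22) and leaving out each library, which also dropped the stage term.

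No paired analysis was possible because no 2 bulk groups share more than 1 replicate number. The stage term of limma already sets T KO against WT within a stage, and the fit without it is given above. Depth limits chains under about 1 FPKM, and cell depth is unknown.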
